A study of Mus musculus with 6 samples.

Results

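The chemokine genes of mouse aortic cells were read in all 6 deposited RNA libraries. They were taken by name, as every gene of the table whose symbol starts with Ccl, Cxcl or Cx3cl and a number, which gave 38 of 25683 genes. A gene counted as expressed with 10 or more exon reads in at least 3 libraries, and 14 of the 38 met this. The other 24 did not, and 12 of those had no read in any library. The cells are labelled as a primary line of aortic vascular smooth muscle cells, which contract to set the width of the vessel. Libraries 1 to 3 are labelled as Nt5e knock-out and libraries 4 to 6 as wild type, so each genotype has 3 libraries. Nt5e encodes CD73, a cell-surface enzyme that turns AMP into adenosine. Both genotypes were grown at 10% fetal bovine serum and then held at 0.5% for 48 h, and no library received a cytokine or other stimulus that the labels name. The sources used here do not give how the knock-out was made, nor the age and strain of the mice. The labels do not say whether libraries of a genotype come from separate animals or cultures, so the spread behind each p-value is that between these samples alone and may be technical.

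Chemokines are small secreted proteins that direct the movement of leukocytes by binding receptors of the G protein-coupled kind, and they are held on surfaces and matrix by heparan sulphate. CC ligands such as CCL2 mainly draw monocytes, eosinophils and lymphocytes, whereas a group of CXC ligands led by CXCL1 draws neutrophils through CXCR2. Most of these inflammatory ligands are induced through NF-kappaB. Others, led by CXCL12, are made without a stimulus and position stem cells and lymphocytes. Cells of the arterial wall are a known source of CCL2, CXCL12 and CX3CL1, among other chemokines.

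Depth was 19919095 to 23669252 exon reads per library. Nt5e, the targeted gene, had 615, 688 and 486 reads in the wild type (libraries 4, 5 and 6, in that order here and below) and 22, 1 and 2 in the knock-out (libraries 1, 2 and 3). Libraries of a genotype were not equally spaced. Knock-out libraries 2 and 3 differed by a coefficient of variation of only 3.66% beyond counting noise, and wild-type libraries 4 and 6 by 3.49%, whereas knock-out library 1 differed from the other two by 44.6% and 45.1%, about as much as from the wild type (43.7% to 48.0%). Nearly identical libraries carry little separate information, so results are given below also with those pairs summed and without knock-out library 1. Of 12 smooth muscle markers, Cald1 (778 to 887 CPM in the wild type and 792 to 1813 in the knock-out) and Acta2 (51.9 to 101 and 73.8 to 546 CPM) were the most abundant, and the defining regulator Myocd had 2 wild-type and 5 knock-out reads in all. Myh11, the smooth muscle myosin, had 7 and 126. CPM (counts per 1000000) are reads scaled by the TMM-adjusted library size.

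Chemokine RNA was dominated by few genes. For levels compared between genes, the authors' RPKM (reads scaled by exon length and mapped depth) were used. In the wild type, Cxcl12 stood first at 258 ± 10.2 RPKM (SD, n = 3), followed by Ccl2 at 162 ± 41.4, Ccl7 at 86.8 ± 17.9 and Cxcl1 at 57.7 ± 4.44, and the ranges of neighbours in this order did not overlap. Cx3cl1 (12.1 ± 1.13 RPKM) lay well below Cxcl1 and overlapped in range with Cxcl16 (10.3 ± 1.11). Cxcl16 also overlapped with Cxcl15 (7.80 ± 4.21) but lay wholly above Ccl8, Cxcl14 and Ccl27a, at 4.19, 4.15 and 3.71 RPKM. The ranges of Cxcl15, Ccl8, Cxcl14 and Ccl27a overlapped with each other. Ccl9 and Cxcl5 followed at 1.69 ± 1.05 and 1.66 ± 1.10 RPKM, and Ccl25 and Cxcl10 were lowest at 0.470 ± 0.0782 and 0.463 ± 0.140 RPKM. In the knock-out the same 4 genes led, at 536 ± 273 RPKM for Cxcl12, 43.2 ± 12.1 for Ccl2, 27.5 ± 1.36 for Ccl7 and 9.85 ± 3.35 for Cxcl1. The first 3 gaps again showed no overlap in range, and from Cxcl1 downwards every neighbour overlapped.

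**Figure D1:**
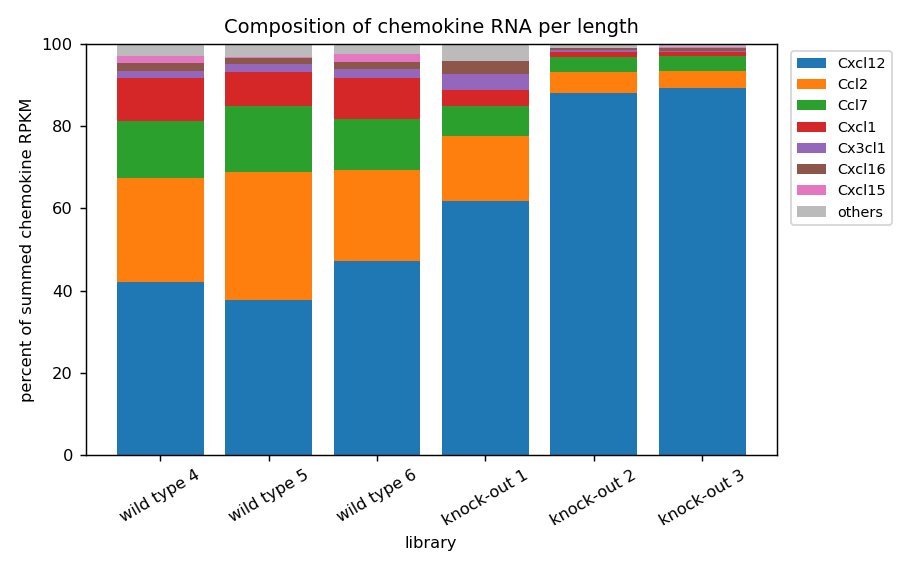
Percent of the summed RPKM of the 38 chemokine genes taken by each gene (y axis, stacked colours) in each library (x axis). Cxcl12 takes 37.8% to 47.2% in the 3 wild-type libraries and 61.8% to 89.3% in the 3 knock-out libraries, where the shares of Ccl2, Ccl7 and Cxcl1 are smaller.

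Cxcl12 made up 37.8% to 47.2% of summed chemokine RPKM in the wild type and 61.8% to 89.3% in the knock-out, as the plot of composition shows. The summed level of all 38 genes was 2273, 2334 and 2361 CPM in the wild type, and 1853, 5753 and 5781 CPM in the knock-out. Without Cxcl12 it was 388, 434 and 349 CPM in the wild type and 198, 117 and 105 CPM in the knock-out, so the other chemokines together were lower in all 3 knock-out libraries. These are bulk libraries, in which fewer cells making a gene and less RNA per cell cannot be told apart.

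**Figure D2:**
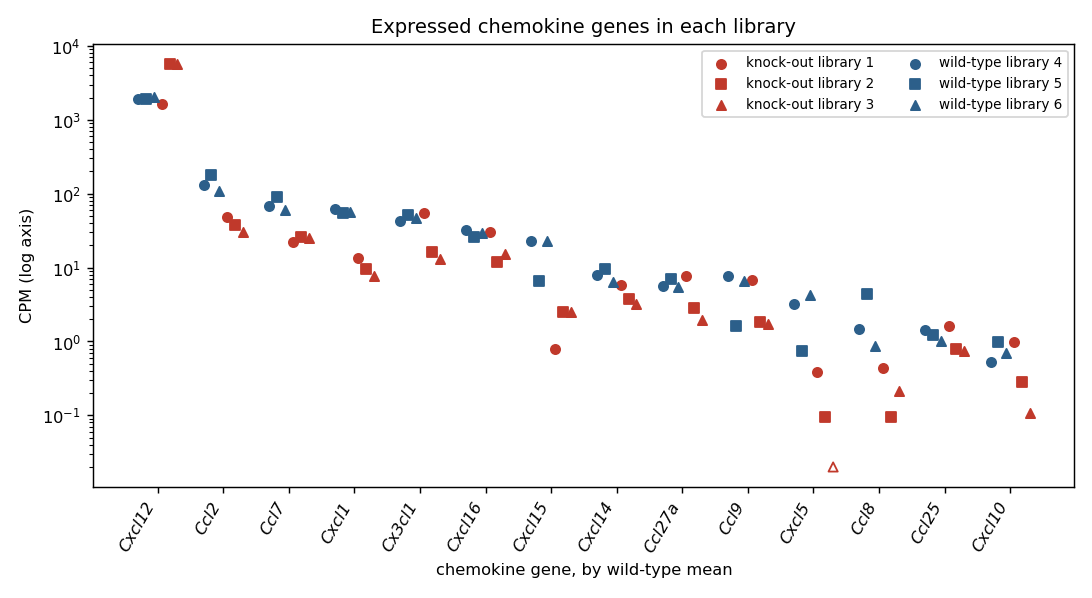
CPM (y axis, log scale) of the 14 expressed chemokine genes (x axis, ordered by wild-type mean), with 1 point per library, blue for wild type and red for knock-out. The open triangle at the bottom marks Cxcl5 in knock-out library 3, which had 0 reads. Wild-type points lie above all knock-out points for 7 genes, among them Ccl2, Ccl7 and Cxcl1.

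Of the 14 expressed genes, which are also the 14 that were tested, 6 were called lower in the knock-out and 0 higher by edgeR's quasi-likelihood test at an adjusted p under 0.05. The 6 were Cxcl1, Cxcl15 and Cxcl5, of the neutrophil-attracting CXC class, and Ccl2, Ccl7 and Ccl8, of the monocyte chemoattractant and eotaxin CC class. Among all 12660 tested genes 13.7% were called lower and 14.1% higher. In 7 of the 14, the 6 called genes and Cxcl14, all knock-out libraries lay below all wild-type libraries, against 25.5% of all tested genes. In 0 of the 14 did all knock-out libraries lie above, against 24.3% of all tested genes. At an unadjusted p under 0.05, 7 were lower and 1, Cxcl12, was higher. DESeq2, which called 36.8% of all genes, called 7 lower and 1 higher. The count of 14 is shaped by the filter on low reads, since Cxcl5 passed through its wild-type libraries alone and Ccl8 nearly so, while Ccl11, with reads mainly in 2 knock-out libraries, did not pass. Without knock-out library 1 the count was 11 lower and 2 higher, in a fit that called 66.2% of all genes, while leaving out any 1 of knock-out libraries 2 and 3 and wild-type libraries 4 and 6 gave 3 lower and 0 higher, and without wild-type library 5 there were 4 lower and 0 higher. Those 5 fits called 8.71% to 13.03% of all genes, so the chemokine count was highest where that over all genes was. With each nearly identical pair summed, none of the 14 passed in edgeR, 5 having an unadjusted p under 0.05, all lower, and the same fit called 17 of 13041 genes in all.

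**Figure D3:**
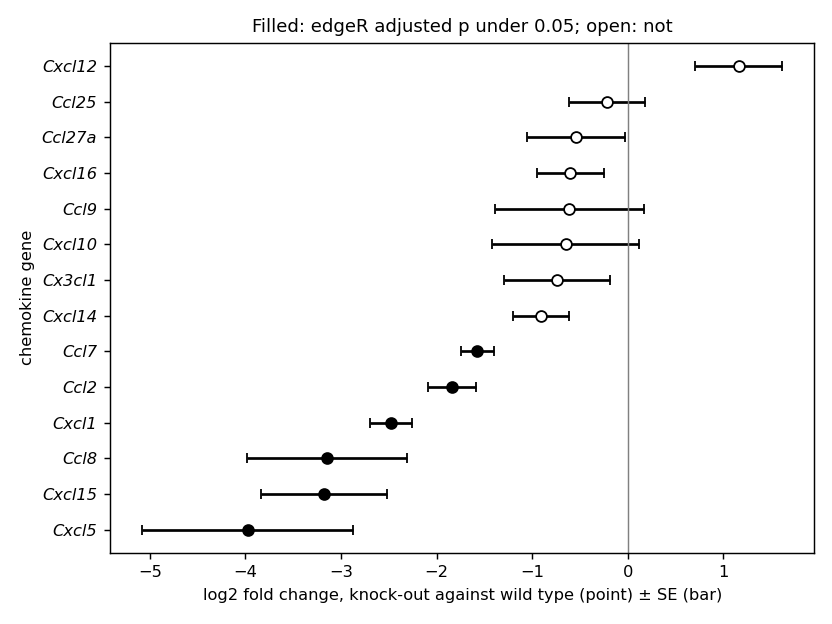
Log2 fold change of knock-out against wild type (x axis, point) with its standard error (bar) for the 14 tested chemokine genes (y axis), filled where the edgeR adjusted p was under 0.05. The 6 filled points lie between -3.98 (Cxcl5) and -1.57 (Ccl7), and Cxcl12 is the one gene with a positive value, 1.16 ± 0.46.

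The neutrophil-attracting CXC genes lie together on chromosome 5, in 146.6 kb from 90759360 to 90905938 (GRCm38), in the order Cxcl5, Cxcl3, Cxcl15, Cxcl1 and Cxcl2. Cxcl5, Cxcl15 and Cxcl1 were expressed, and each was called lower in the knock-out, as were 13.7% of all tested genes. Cxcl5 passed the filter through the wild type alone, so its direction was in part set by the filter. The median log2 fold change over all tested genes of that chromosome was -0.10. The 250 bases before the RefSeq start site (GRCm38.p6, from the RefSeq table) are shown for the 4 of them with an entry there. Those of Cxcl10 and Cxcl12 follow, as the window with the most matches and as that of the most abundant chemokine. Each is written 5′ to 3′ on the gene's strand, with motif matches in capitals.
Cxcl1 (chr5:90890995-90891244, plus strand): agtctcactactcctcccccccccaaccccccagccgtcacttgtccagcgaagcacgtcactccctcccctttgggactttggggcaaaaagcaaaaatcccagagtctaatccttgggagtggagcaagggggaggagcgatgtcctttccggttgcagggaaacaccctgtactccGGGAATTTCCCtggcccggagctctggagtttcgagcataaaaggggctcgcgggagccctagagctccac
Cxcl2 (chr5:90903649-90903898, plus strand): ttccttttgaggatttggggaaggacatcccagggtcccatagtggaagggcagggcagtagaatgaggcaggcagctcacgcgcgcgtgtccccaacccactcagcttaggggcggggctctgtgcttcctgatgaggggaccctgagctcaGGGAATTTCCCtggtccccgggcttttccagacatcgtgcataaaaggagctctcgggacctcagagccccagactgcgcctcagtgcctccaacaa
Cxcl3 (chr5:90785851-90786100, plus strand): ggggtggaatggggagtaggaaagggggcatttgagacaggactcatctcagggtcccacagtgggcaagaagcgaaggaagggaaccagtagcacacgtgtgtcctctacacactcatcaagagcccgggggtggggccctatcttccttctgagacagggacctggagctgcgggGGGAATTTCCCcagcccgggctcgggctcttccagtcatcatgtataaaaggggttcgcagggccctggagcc
Cxcl15 (chr5:90794284-90794533, plus strand): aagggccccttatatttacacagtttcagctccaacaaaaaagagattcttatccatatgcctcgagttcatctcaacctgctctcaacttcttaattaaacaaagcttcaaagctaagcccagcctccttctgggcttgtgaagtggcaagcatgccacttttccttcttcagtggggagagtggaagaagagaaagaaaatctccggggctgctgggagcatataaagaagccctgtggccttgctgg
Cxcl10 (chr5:92348890-92349139, minus strand): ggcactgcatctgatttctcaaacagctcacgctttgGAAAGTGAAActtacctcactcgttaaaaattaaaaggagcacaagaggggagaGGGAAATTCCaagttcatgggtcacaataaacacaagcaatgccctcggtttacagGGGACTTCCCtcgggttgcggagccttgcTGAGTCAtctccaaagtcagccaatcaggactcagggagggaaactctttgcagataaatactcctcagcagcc
Cxcl12 (chr6:117168285-117168534, plus strand): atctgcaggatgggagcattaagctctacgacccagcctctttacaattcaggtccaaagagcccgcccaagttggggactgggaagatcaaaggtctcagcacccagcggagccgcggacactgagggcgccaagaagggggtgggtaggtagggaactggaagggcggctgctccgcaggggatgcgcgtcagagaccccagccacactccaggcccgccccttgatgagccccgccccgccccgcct

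The capitals mark the NF-kappaB consensus, AP-1 (TGANTCA), the interferon-stimulated response element (GAAANNGAAA), the gamma-interferon activation site (TTCNNNGAA) and the cAMP response element (TGACGTCA), searched on both strands. The NF-kappaB match of Cxcl1, Cxcl2 and Cxcl3 is the same run of letters, GGGAATTTCCC, which matches on both strands and is counted once. It starts at base -71 from the start site in Cxcl1, -97 in Cxcl2 and -73 in Cxcl3. The Cxcl10 window holds a pair of NF-kappaB matches, 1 AP-1 match and 1 interferon-stimulated response element, and the Cxcl15 and Cxcl12 windows hold none of the 5 motifs. Of all 32851 RefSeq windows, the 250 upstream bases held the NF-kappaB consensus in 3.90%, AP-1 in 6.75%, the interferon-stimulated response element in 2.98%, the gamma-interferon activation site in 7.02% and the cAMP response element in 1.55%. Of the 38 chemokine genes 27 had an entry in the table, among them 10 of the 14 expressed. Ccl2, Ccl7 and Cxcl5, all called lower, and Cxcl16 had no entry, so no motif was searched in them. Among the expressed members with an entry, the others with an NF-kappaB match are Ccl9, in the upstream bases, and Ccl27a, after one of its start sites. A match is a description of letters, not a bound site.

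Cxcl1 (ENSMUSG00000029380, chromosome 5, 90891241 to 90893115, plus strand) encodes the main mouse ligand of CXCR2 and had 62.4, 54.6 and 55.9 CPM in the wild type, against 13.6, 9.62 and 7.71 CPM in the knock-out. The wild-type libraries lay close together, and no knock-out library came near them. Cxcl1 fell 5.58-fold (log2 fold change -2.48 ± 0.22 SE, adjusted p = 0.00167). Exon junction reads, which come from spliced RNA, numbered 1612 in the wild type and 277 in the knock-out, and intron reads 495 and 93, so both kinds were lower. Cxcl2 and Cxcl3, of the same cluster, were nearly or wholly silent: Cxcl2 had 6, 13 and 2 reads in the wild type and 6, 2 and 1 in the knock-out, and Cxcl3 had none.

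Cxcl15, a neutrophil attractant known from lung epithelium, had 513, 161 and 487 wild-type reads and 18, 53 and 47 knock-out reads. Every knock-out library lay below the wild type, although wild-type library 5 stood well under the other two. Cxcl15 fell 9.03-fold (log2 fold change -3.17 ± 0.66 SE, adjusted p = 0.0194). Cxcl5, made mainly by epithelial and stromal cells, was scarcer, at 72, 18 and 92 wild-type reads and 9, 2 and 0 knock-out reads. The groups did not overlap, but the lowest wild-type library, again library 5, had only 18 reads. Cxcl5 fell by 3.98 ± 1.11 on the log2 scale (adjusted p = 0.0442), and by 5.62 without knock-out library 1. Cxcl15 lost its call when any 1 of knock-out libraries 2 and 3 and wild-type libraries 4 and 6 was left out, and Cxcl5 when any 1 of these or wild-type library 5 was.

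Ccl2, Ccl7 and Ccl8, of the monocyte chemoattractant and eotaxin class, lie in a cluster on chromosome 11, in 270.1 kb from 82035571 to 82305690, together with Ccl11, Ccl12 and Ccl1. Ccl2, Ccl7 and Ccl8 were its expressed members and each was called lower, beside 13.7% of all tested genes and a median log2 fold change of -0.18 over those of chromosome 11. Ccl2 (ENSMUSG00000035385, 82035571 to 82037453, plus strand), which recruits monocytes through CCR2, had 129, 178 and 107 CPM in the wild type and 48.1, 37.7 and 30.2 CPM in the knock-out. It fell 3.58-fold (log2 fold change -1.84 ± 0.25 SE, adjusted p = 0.0060). Ccl7 (ENSMUSG00000035373, 82045712 to 82047525, plus strand), another CCR2 ligand, had 68.8, 90.1 and 59.9 CPM in the wild type and 21.9, 26.3 and 25.3 CPM in the knock-out. The 3 knock-out libraries lay close together here, and Ccl7 fell 2.98-fold (log2 fold change -1.57 ± 0.17 SE, adjusted p = 0.00322). In both genes the ordering was the same in spliced and unspliced RNA: junction reads were 4311 and 1146 for Ccl2 and 1915 and 616 for Ccl7 in wild type and knock-out, and intron reads were 485 and 171, and 256 and 105.

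Ccl8, a relative of Ccl2 known from macrophages and skin, had 33, 107 and 19 reads in the wild type and 10, 2 and 4 in the knock-out. It fell by 3.15 ± 0.83 on the log2 scale (adjusted p = 0.0389), with wild-type library 5 far above the other two. The change was -2.21 without wild-type library 5 and -3.87 without knock-out library 1. It lost its call without any one of the libraries other than knock-out library 1. With the nearly identical pairs summed, the adjusted p was 0.0787 for Cxcl1, 0.0917 for Ccl7, 0.112 for Ccl2, 0.199 for Cxcl15, 0.204 for Ccl8 and 0.277 for Cxcl5. Of the rest of this class, Ccl12, a mouse CCR2 ligand, and the eotaxin Ccl26 had 0 reads. The eotaxin Ccl24 had 3, 5 and 0 wild-type reads and 0 in every knock-out library. With the knock-out set at a floor of 3 reads over the group it was 2.46-fold lower, a value without counting error.

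The neighbouring eotaxin Ccl11, which draws eosinophils through CCR3, had its reads elsewhere than Ccl2 and Ccl7. It had 4, 5 and 2 reads in the wild type, 0 in knock-out library 1, and 53 and 46 in knock-out libraries 2 and 3. Over summed reads it was 9.74-fold higher in the knock-out (exact 95% interval 5.22 to 20.2, counting error only), which rests on the nearly identical pair. When knock-out library 1 was left out, Ccl11 passed the filter and had a log2 fold change of 3.89 (adjusted p = 1.82e-04).

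Cxcl12 (ENSMUSG00000061353, chromosome 6, 117168535 to 117181367, plus strand), the CXCR4 ligand that holds stem cells and lymphocytes in place, split the knock-out libraries. It stood at 1885, 1900.0 and 2012 CPM in the wild type, at 1655 CPM in knock-out library 1, while libraries 2 and 3 of that genotype had 5635 and 5676 CPM. Knock-out library 1 thus lay at 85.7% of the wild-type mean and the other two at 292% and 294%. The log2 fold change was 1.16 ± 0.46 (SE) with an adjusted p of 0.109. Without knock-out library 1 it was 1.54 with an adjusted p of 1.63e-06, which rests on the nearly identical pair of libraries 2 and 3, and DESeq2 on all 6 libraries gave an adjusted p of 0.0237. With the nearly identical pairs summed the adjusted p was 0.475, and with the title's p number as a covariate the log2 fold change was 0.65 (adjusted p = 0.304). Intron reads followed the same order, with 607, 844 and 661 in the wild type and 562, 2436 and 2113 in the knock-out.

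Cxcl14, a ligand made by epithelium and fibroblasts, had 7.98, 9.58 and 6.30 CPM in the wild type and 5.80, 3.72 and 3.19 CPM in the knock-out. The groups did not overlap, yet knock-out library 1 lay just under wild-type library 6. The fitted difference was -0.91 ± 0.29 on the log2 scale (adjusted p = 0.0662). It passed with DESeq2 (adjusted p = 0.0255), without knock-out library 1 (0.00296) and with either title number as a covariate (0.0442 and 0.0176), and not with the pairs summed (0.314). Of the other members of this class, the B cell attractant Cxcl13 had 1 read in all and Cxcl17, known from mucosa, had 2 knock-out and 3 wild-type reads.

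Both chemokines that are made as membrane proteins with a mucin stalk were expressed, and in both knock-out library 1 lay with or above the wild type. Cx3cl1, or fractalkine, the ligand of CX3CR1, had 42.4, 51.8 and 47.4 CPM in the wild type, 55.1 CPM in knock-out library 1 and 16.4 and 13.1 CPM in knock-out libraries 2 and 3. Its log2 fold change was -0.74 ± 0.55 (SE) with an adjusted p of 0.347. Cxcl16, the CXCR6 ligand, had 715, 633 and 644 reads in the wild type and 710, 256 and 283 in the knock-out. Its log2 fold change was -0.60 ± 0.36 (SE) with an adjusted p of 0.248. Without knock-out library 1 the log2 fold changes were -1.68 (adjusted p = 7.16e-05) and -1.12 (adjusted p = 4.35e-04), and with the pairs summed the adjusted p was 0.722 and 0.680. Cxcl16 shares 552 exon bases with Zmynd15 on the opposite strand, and since the handling of strand is not given, reads of the pair may be mixed, though Zmynd15 itself had 13 to 66 reads.

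The ratios of each knock-out library to the wild-type mean show this split over the whole set. Knock-out libraries 2 and 3 both lay below the wild-type range for 12 of the 14 genes, above it for Cxcl12 and within it for Ccl9. Knock-out library 1 lay below the wild-type range for 8 genes, above it for Ccl25, Ccl27a, Cx3cl1 and Cxcl10, and within it for Ccl9 and Cxcl16. The 6 called genes and Cxcl14 were the ones below the range in all 3.

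**Figure D4:**
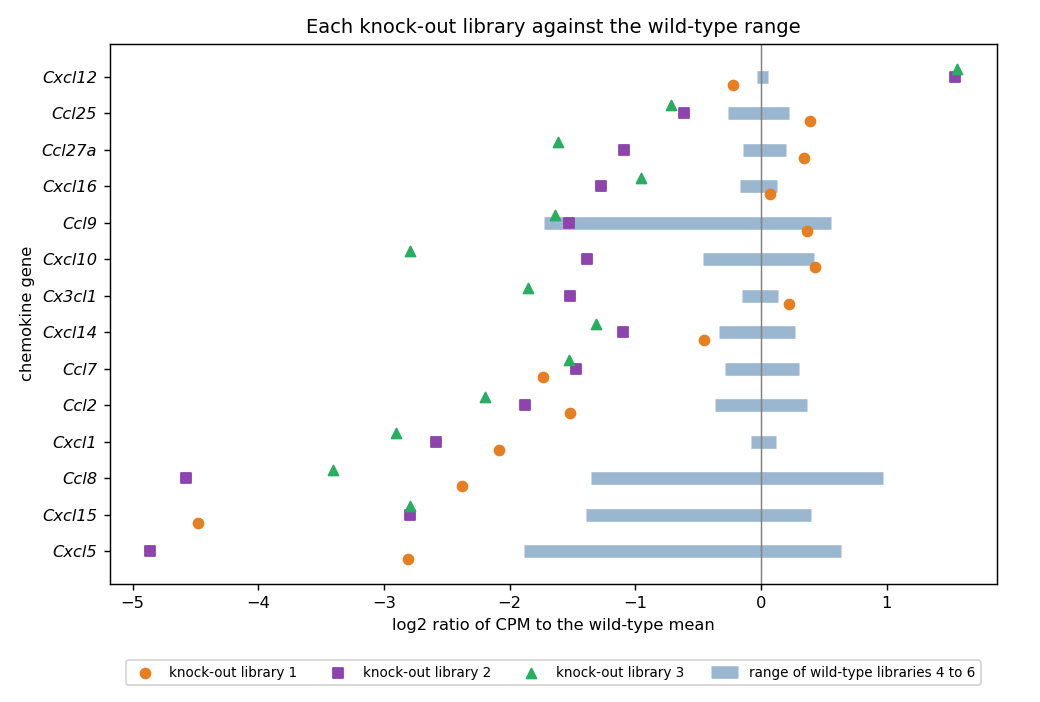
Log2 ratio of CPM in each knock-out library to the wild-type mean (x axis) for the 14 expressed chemokine genes (y axis), with a bar for the range of the wild-type libraries. Cxcl5 in knock-out library 3 had 0 reads and is not drawn. Knock-out libraries 2 and 3 sit together for most genes, and knock-out library 1 lies apart from them at, for example, Cxcl12, Ccl9, Cx3cl1 and Cxcl15.

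Among the macrophage inflammatory proteins and their relatives, Ccl9 alone was expressed, at 7.80, 1.60 and 6.53 CPM in the wild type and 6.84, 1.84 and 1.70 CPM in the knock-out. Both genotypes spanned the same range, and the log2 fold change was -0.61 ± 0.78 (SE, adjusted p = 0.585). Ccl5, or RANTES, a T cell and monocyte attractant, had 2, 4 and 1 reads in the wild type and 13, 7 and 4 in the knock-out, 3.71-fold more over summed reads (exact 95% interval 1.55 to 10.2, counting error only). Ccl6 had 4, 0 and 0 wild-type reads and 18, 1 and 3 knock-out reads, so its ratio of 5.96 (2.02 to 23.8) rests on knock-out library 1. Ccl3 had 2 reads in all and Ccl4 had 0. The Ccl5, Ccl9, Ccl6, Ccl3 and Ccl4 genes share 138.9 kb of chromosome 11, away from the Ccl2 cluster.

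Of the interferon-inducible CXCR3 ligands, Cxcl9 and Cxcl11 had 0 reads. Cxcl10 had 12, 24 and 15 reads in the wild type and 23, 6 and 2 in the knock-out, and its log2 fold change was -0.65 ± 0.77 (SE, adjusted p = 0.553). It shares 133 exon bases with Art3 on the opposite strand, which had at most 6 reads in a library. Its wild-type level per length was the lowest of the expressed members together with that of Ccl25.

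The remaining CC ligands serve lymphoid organs, gut and skin, and only Ccl27a and Ccl25 were expressed. Ccl27a, a skin T cell attractant, had 128, 168 and 118 reads in the wild type and 176, 60 and 37 in the knock-out (log2 fold change -0.54 ± 0.51 SE, adjusted p = 0.461). Only 77.1% of its reads were unique and Il11ra1 overlaps it on the opposite strand, so its level is uncertain. Ccl25, which guides thymocytes and gut T cells through CCR9, had 32, 30 and 22 wild-type reads and 37, 17 and 14 knock-out reads (log2 fold change -0.22 ± 0.40 SE, adjusted p = 0.706). It shares 204 exon bases with the abundant Elavl1 on the opposite strand, and its introns held more reads than its exons, 369 in the wild type and 257 in the knock-out, so this level is uncertain too. Without knock-out library 1, Ccl27a and Cxcl10 passed the test (log2 fold changes -1.33 and -1.88, adjusted p = 0.00216 and 0.0263) and Ccl25 and Ccl9 did not (-0.67 and -1.58, adjusted p = 0.104 and 0.0692). With the pairs summed, the edgeR adjusted p was 0.804 for Ccl27a, 0.816 for Cxcl10, 0.964 for Ccl25 and 0.986 for Ccl9.

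Among those not expressed, Ccl28, a mucosal ligand, had 13, 0 and 7 wild-type reads and 53, 2 and 7 knock-out reads, of which only 2 and 1 crossed an exon junction. The lymph node ligand Ccl19 had 5, 5 and 2 wild-type reads and 2, 0 and 0 knock-out reads, 5.54-fold fewer (exact 95% interval 1.23 to 51.0, counting error only). Ccl20, the CCR6 ligand, had 2 reads in each knock-out library and 0 in the wild type. With the wild type set at the floor of 3 reads over the group it was 2.17-fold higher, again without counting error. Ccl17 had 3 reads in each genotype, and Ccl1, Ccl21a, Ccl21b, Ccl21d, Ccl22 and Ccl27b had 0. The floor of 3 reads was taken over the 3 libraries of a genotype together. Reads without molecular identifiers are not independent molecules, so these intervals cover counting error only.

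The receptors that signal through G proteins for these ligands were almost absent. Of 19 chemokine receptors 9 had 0 reads in all libraries, among them Cxcr4, Ccr2, Cxcr3 and Cxcr1, and Cxcr2 had 1 read in all. Only Ccr10, the receptor of CCL27 and CCL28, was tested, at 38, 41 and 34 wild-type reads and 22, 23 and 24 knock-out reads (log2 fold change -0.58 ± 0.25 SE, adjusted p = 0.139). Of 6 atypical receptors, which bind and clear chemokines without G protein signalling, 3 were tested and none passed in edgeR, and none had an unadjusted p under 0.05. The CXCL12 scavenger Ackr3 was the most abundant, with 1033, 1156 and 920 wild-type reads and 464, 1583 and 1468 knock-out reads (adjusted p = 0.621). Like Cxcl12, it was lower than the wild type in knock-out library 1 and higher in knock-out libraries 2 and 3. Xcl1 and Ppbp, chemokines outside the name rule, had 0 reads and Pf4 had 3 in all.

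Enzymes that trim or shed chemokines were expressed unevenly. The calls in this list and in those below count the nearly identical libraries as separate. With those pairs summed, only 17 of 13041 genes passed in edgeR. Of 14 listed proteases 8 were tested, 1 rose and 3 fell, beside 14.1% of all tested genes called higher and 13.7% lower. Dpp4, which removes the first residues of CXCL12 and other chemokines, fell by 3.71 ± 0.24 on the log2 scale (adjusted p = 7.62e-04), from 6.53 to 7.85 CPM in the wild type to 0.424 to 0.638 CPM. Mmp2, a gelatinase that cuts CCL7 and CXCL12, rose by 2.57 ± 0.49 (adjusted p = 0.0154), Mmp13 fell by 4.09 ± 0.73 (adjusted p = 0.0126), and Adam17, which sheds CX3CL1, fell by 0.57 ± 0.10 (adjusted p = 0.0132). Of 21 tested genes for heparan sulphate and its core proteins, 6 rose and 2 fell, beside the same shares of all genes. Sulf2, a sulphatase that edits heparan sulphate outside the cell, rose by 1.55 ± 0.15 on the log2 scale (adjusted p = 0.00218), and the core proteins Sdc2 and Gpc6 by 1.66 ± 0.23 and 3.31 ± 0.48 (adjusted p = 0.00599 and 0.00696). Syndecan Sdc4 fell by 1.27 ± 0.14 (adjusted p = 0.00316) and the sulphotransferase Hs3st1 by 1.33 ± 0.25 (adjusted p = 0.0153). The median log2 fold change was -0.37 over the tested proteases and 0.37 over the heparan sulphate genes, beside 0.02 over all tested genes.

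Among genes through which inflammatory chemokines are induced, the shares called in the NF-kappaB, interferon and RNA decay lists lay near or below those over all tested genes (14.1% higher, 13.7% lower) and are given as a description. All knock-out libraries lay above or below all wild-type libraries in 24.3% and 25.5% of all tested genes. These counts were 2 and 7 of 16 NF-kappaB genes, 3 and 6 of 21 upstream genes, 4 and 4 of 18 interferon genes, and 5 and 1 of 8 RNA decay genes. By this measure the 7 of 16 NF-kappaB genes below and the 5 of 8 RNA decay genes above were larger shares than over all tested genes. Of 16 NF-kappaB components and feedback genes, 1 rose, Nfkb1 by 0.48 ± 0.08 (adjusted p = 0.0106), and 2 fell, Relb by 0.69 ± 0.08 (adjusted p = 0.0041) and Bcl3 by 1.80 ± 0.23 (adjusted p = 0.00517), with a median log2 fold change of -0.23. Of 21 tested receptors and adaptors upstream of NF-kappaB, 2 rose and 6 fell, the latter a larger share than the 13.7% of all tested genes. Cd14, the endotoxin co-receptor, fell by 2.45 ± 0.27 on the log2 scale (adjusted p = 0.00341), the TNF receptor Tnfrsf1a by 0.42 ± 0.08 and the oncostatin M receptor Osmr by 1.07 ± 0.20 (adjusted p = 0.0152 for both), while Il17rc rose by 0.63 ± 0.09 (adjusted p = 0.00744) and Tlr6 by 3.24 ± 0.63 (adjusted p = 0.0158). Of 18 interferon signalling genes 1 rose, Irf2 by 0.27 ± 0.06 (adjusted p = 0.0274), and 3 fell, led by the kinase Jak2 at -1.76 ± 0.13 (adjusted p = 0.00102), then Ifngr2 at -0.45 ± 0.10 (adjusted p = 0.0246) and Irf8 at -4.25 ± 0.96 (adjusted p = 0.0248). Of 8 factors that set the decay of chemokine RNA, 1 rose, Elavl1 by 0.25 ± 0.06 (adjusted p = 0.0329).

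Other cell types were read from their markers, since leukocytes, endothelium, fibroblasts and mesothelium also make chemokines. Of 18 leukocyte markers 9 had 0 reads, including the defining Ptprc, Itgam, Adgre1 and Tyrobp, and the list summed to 4.49 to 7.09 CPM in the wild type and 6.45 to 16.9 CPM in the knock-out, most of it Lyz2, which rose by 2.57 ± 0.50 on the log2 scale (adjusted p = 0.0156), with Cd68 next, which fell by 2.33 ± 0.34 (adjusted p = 0.00704). The 11 endothelial markers summed to 2.04 to 3.62 CPM in the wild type and 4.03 to 7.71 CPM in the knock-out, led by Kdr and Egfl7, with Tie1 and Cldn5 at 0. The 12 smooth muscle markers summed to 965 to 1118 CPM in the wild type and 995 to 2549 CPM in the knock-out. Most of the wild-type sum was Cald1, while Myocd and Myh11 were nearly absent from the wild type, as given above. The 10 fibroblast markers, led by Col3a1 and Dcn, summed to 6076 to 6106 CPM in the wild type and 5783 to 17689.9 CPM in the knock-out.  Of 12 tested mesothelial and epithelial markers 11 were called lower and 0 higher, beside 13.7% and 14.1% of all tested genes. Called higher and lower were 2 and 0 of 10 tested fibroblast markers and 1 and 1 of 9 smooth muscle markers. For endothelial markers it was 1 and 0 of 2 tested, and for leukocyte markers 1 and 1 of 3. The mesothelial and epithelial list of 15, led by Msln and Lrrn4, summed to 3631 to 3948 CPM in the wild type and 297 to 955 CPM in the knock-out. In the wild type that sum lay above the smooth muscle sum, and in the knock-out below it. Msln stood at 773 to 808 CPM in the wild type but only 44.0, 0.990 and 1.38 CPM in the knock-out. The part of these cell markers in the chemokine results was not tested.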

How the data were processed

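RNA-seq of 6 poly(A)-selected libraries was analysed. The table holds whole-number read counts per gene and library, deposited by the authors, and RPKM values made by the authors. Per the submitters' processing notes, reads were placed on build GRCm38 (mm10). The sources used here do not name the aligner, counter, annotation release or strand handling. The deposited expression value equals the total exon reads. Of the 38 members 36 had the same coordinates in GENCODE M21.

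The fit used edgeR 4.0.16 (R 4.3.3) on the counts of all genes passing filterByExpr (minimum count 10), with TMM scaling, the quasi-likelihood F test on genotype and Benjamini-Hochberg adjustment over 12660 genes at 0.05. The standard error is the size of the log2 fold change over the square root of F. RPKM served only to compare levels between genes. Members under the filter were compared over summed reads. DESeq2 1.42.0, limma-voom (limma 3.58.1), other scalings and filters, unique reads, title numbers and left-out libraries were alternatives. Plots used matplotlib 3.10.9.

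All expressed members are named with their values, and the others with their reads. From each pathway list up to 3 genes called in each direction with the smallest p are named, and from marker lists the 2 of highest mean. Other markers and receptors, and genes overlapping a member, were named after their values were seen. The members and lists were chosen with earlier results of these data known.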

Additional observations from a re-analysis of the deposited data

How the results depend on the processing

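No direction of an expressed member reversed in any alternative fit. The number of chemokines called lower, 6, became 3 with limma-voom and 0 with both nearly identical pairs summed. Leaving out 1 library at a time gave 3 to 11, with 11 without knock-out library 1. The 4 libraries whose titles end in 2 gave 12, in a fit that called 73.0% of all genes. These 4 are exactly the nearly identical pairs, so the spread within each genotype there is that between near-duplicates. The number called higher, 0, became 1 with DESeq2, 2 with libraries of one title stem summed, 2 with titles ending in 2, and 0 to 2 leaving out 1 library. The expressed count, 14, was 17 at 5 reads and 11 at 20 reads. Cxcl1, Ccl2 and Ccl7 kept their calls in 17 of 18 alternatives, all but the summed pairs. Cxcl15 lost its call in 6 of 18, Ccl8 in 7 of 17 and Cxcl5 in 9 of 17. With total-count scaling 40.1% of all calls were higher, against 50.7% with TMM. Over all genes, 8486 of 12817 were called without knock-out library 1. The labels state no pairing, and the genotypes share no replicate numbers in them (1 to 3 and 4 to 6). Numbers in the titles are shared between the genotypes but have no stated meaning. As covariates, the p number gave 3122 calls and the last number 4510, against 3524, and in both fits Cxcl5 lost its call (adjusted p = 0.0643 and 0.0673) and Cxcl14 gained one. Within each title number the 6 called members were lower in the knock-out, which their lack of overlap between genotypes fixed in advance. At p number 11, where knock-out library 1 stands alone, Cxcl12 was lower (log2 ratio -0.19), against its direction in the fit. There Ccl25, Ccl27a, Ccl9, Cx3cl1, Cxcl10 and Cxcl16 were higher (0.09 to 0.54), also against theirs, and Cxcl14 was lower (-0.60). The directions were the same at last number 1, but that is knock-out library 1 again, set against wild-type library 5 alone. Both are already in the comparison at p number 11, so this is no separate result. Without a filter 26 members were tested and 6 lower and 0 higher passed in edgeR, with 7 lower and 3 higher at an unadjusted p under 0.05. The smallest adjusted p among the members so added was 0.0816, for Ccl20 with 6 reads in all.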

Other observations

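Within the wild type, library 5 stood apart from libraries 4 and 6 in 4 chemokines, in both directions. It had 107 reads of Ccl8, against 33 and 19, and 39 of Ccl9, 161 of Cxcl15 and 18 of Cxcl5, against 175 and 141, 513 and 487, and 72 and 92. The chemokine-cutting protease Mmp13 was also highest there, at 48.5 CPM against 11.1 and 11.5 CPM.

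Ccl11 and the gene of its receptor, Ccr3, were both read mainly in knock-out libraries 2 and 3. Ccr3 had 4, 1 and 0 reads in the wild type and 3, 15 and 20 in knock-out libraries 1, 2 and 3, beside 4, 5 and 2 and then 0, 53 and 46 for Ccl11. As these libraries are nearly identical, they count as little more than 1 observation.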
